A study of Mus musculus and Bos taurus with 6 samples.

Results

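SOX9 occupancy of the bovine fetal testis at day 90 is described by 11988 peaks, which are all lines of the deposited bovine list, out of 18407 peaks in the lists of both species of the series. SOX9 chromatin immunoprecipitation followed by sequencing (ChIP-seq) recovers the DNA fragments to which the SOX9 protein was bound or cross-linked. A peak is a stretch of genome where such fragments pile up. The bovine libraries came from whole gonads of Holstein fetuses, labelled as testis and collected on day 90 after fertilization. There were 2 SOX9 libraries and 1 input library, which is chromatin DNA sequenced without the antibody. No genetic change and no treatment is given for the fetuses, and the labels do not say how many animals entered a library. The ground tissue was fixed with 2 mM disuccinimidyl glutarate and then with 1% formaldehyde, for 30 minutes each, so proteins held to DNA through a partner could also be recovered. The antibody was a home-made rabbit antibody.

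SOX9 is a transcription factor with a high mobility group (HMG) box, the domain by which SOX proteins grip and bend DNA. In the fetal gonad of an XY embryo, SRY switches SOX9 on in the supporting cells, which then become Sertoli cells, and SOX9 together with partners such as NR5A1 activates Sertoli genes, among them AMH, the hormone that removes the Müllerian ducts. Sertoli cells are the main SOX9-positive cells of the fetal testis, while germ cells, Leydig cells and vessels are also present in a whole gonad. Positions are given in the bovine build UMD3.1, counted from 1. No annotation or sequence of that build was used here, so no peak is tied to a gene, no target gene is named as bound and no sequence is printed. For the same reason the labelled tissue was not checked against marker genes.

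The list gives the 2 SOX9 libraries and the input as 1 pooled result, with no height, score or read count per peak. The depth is unknown, the list gives no value per library, and no test between samples was possible from it. Values below therefore carry 95% intervals that cover counting error only (exact Poisson for densities, exact binomial for shares, order statistics for medians), and peaks are not replicates. Peaks lay on 29 autosomes and the X. The list held no line on any other sequence, and whether any peaks were set aside before this work is not known.

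Most SOX9 peaks measured 500 to 2000 bp, and the median of the list was 1222 bp (1215 to 1232). Widths ranged from 235 to 4764 bp, and 45.8% of peaks (5493) measured 1000 to under 1500 bp. A further 28.2% (3386) measured 500 to under 1000 bp, and 21.03% (2521) measured 1500 to 2000 bp. Peaks under 500 bp numbered 70 and peaks over 3000 bp numbered 18. The central 90% of the list lay between 680 bp and 1962 bp. No line occurred more than once and no neighbours overlapped. All peaks together covered 0.573% of the 2632 Mb between the first and the last peak of each chromosome.

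Distances to the nearest peak varied at both extremes of width. The narrowest peak, at X:104815969-104816203, measured 235 bp. Peaks of 241 bp at 2:66269167-66269407, 254 bp at 6:98678543-98678796, 285 bp at X:12343443-12343727 and 297 bp at 7:31762480-31762776 came next in narrowness. None of the 5 had another peak within 10 kb, and the nearest lay 73.2 kb to 1089 kb away. For the narrowest it lay 125 kb away. The X, which held 1.6% of all peaks, thus supplied 2 of the 5. Among the widest peaks, the peak of 4764 bp on chromosome 1 had its nearest neighbour 39.3 kb away and shared its 1 Mb window with 4 others. The peak of 3528 bp on chromosome 21 was the only peak of its window, with 1577 kb to the nearest. The peaks of 3875 bp on chromosome 3 and 3570 bp on chromosome 11, in contrast, had a neighbour within 3.62 and 1.85 kb.

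Chromosomes differed far more in how many SOX9 peaks they carried than in how wide the peaks were. Densities, counted per Mb between a chromosome's first and last peak, ran over a 4.87-fold range among autosomes, from 2.54 per Mb (2.18 to 2.93) on chromosome 20 to 12.4 (11.5 to 13.3) on chromosome 19. Median widths were lowest on chromosome 21, at 1154 bp (1100 to 1226), and highest on chromosome 6, at 1356 bp (1294 to 1401). Chromosomes 19, 25 and 18 together held 14.9% of all peaks on 6.34% of the summed span. The density interval lay wholly above the value over all autosomes, 4.75 per Mb, on 11 autosomes and wholly below it on 11. Poisson intervals treat peaks as placed independently. Counts in 1 Mb windows had a variance 6.25 times their mean, so the density intervals here and below are too narrow. For width, the interval held the median of the whole list, 1222 bp, on 22 of 29 autosomes, lay above it on 5 (chromosomes 1, 2, 6, 15 and 28) and below it on 2 (chromosomes 18 and 19).

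**Figure D1:**
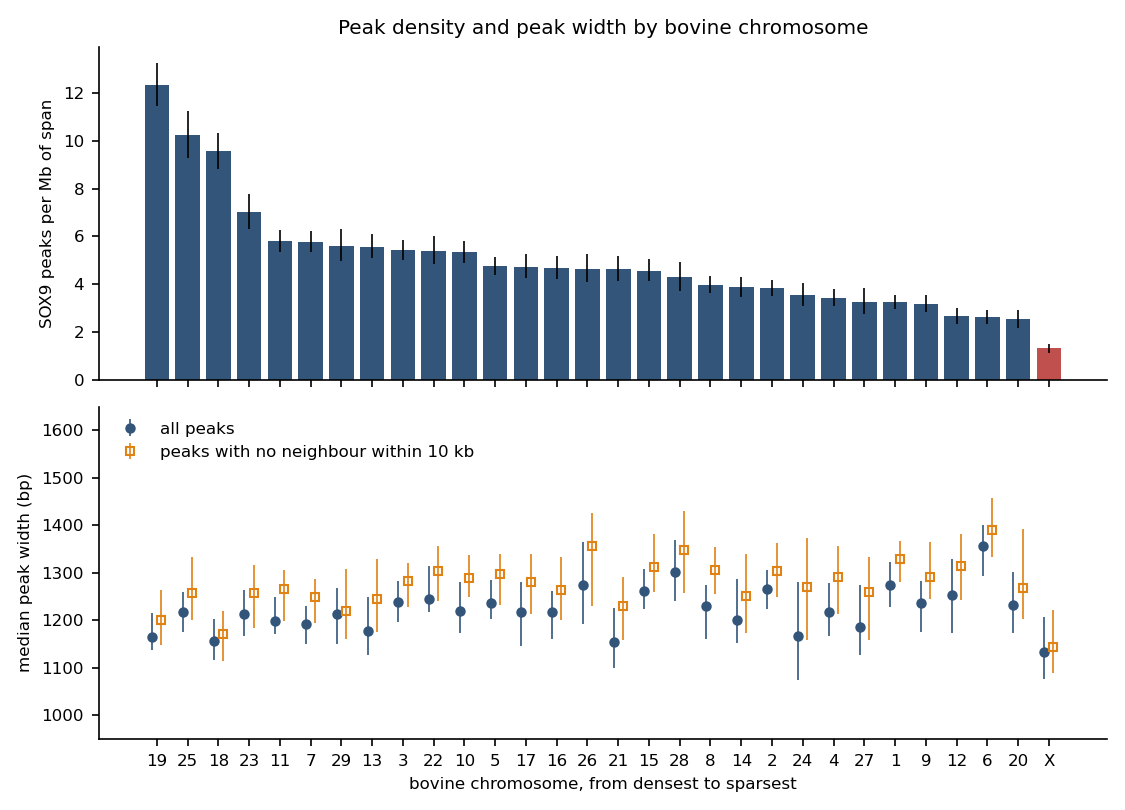
SOX9 peak density (upper panel, peaks per Mb of span, bars with exact 95% Poisson intervals) and median peak width (lower panel, bp, with 95% order-statistic intervals; the axis does not start at 0) for 29 bovine autosomes (blue bars) and the X (red bar), ordered by density. Density falls from 12.4 on chromosome 19 to 1.31 on the X, while the medians of all peaks (circles) stay between 1132.5 and 1356 bp, and lone peaks (squares) are wider than all peaks on every chromosome shown.

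Densely occupied chromosomes had somewhat narrower peaks. Across the 29 autosomes, Spearman's rho between density and median width was -0.48 and Pearson's r was -0.46, and without chromosomes 19 and 25, the farthest from the median density, they were -0.42 and -0.46. These are descriptions over chromosomes of 1 list, which share libraries and depth. The relation was also present among lone peaks, which have no other peak within 10 kb (rho -0.59). Among autosomes, chromosome 18 had the narrowest lone peaks, with a median of 1172 bp (1115 to 1219), ahead of chromosome 19 with 1201 bp (1147 to 1264) and chromosome 29 with 1220 bp (1161 to 1309). Chromosome 6 had the widest, with 1391 bp (1333 to 1458), ahead of chromosome 26 with 1356.5 bp (1231 to 1426) and chromosome 28 with 1348 bp (1257 to 1431). The intervals of chromosomes 18 and 6 did not overlap, but these are the lowest and highest of 29 medians, and the intervals do not allow for that choice. On the X the median of the 168 lone peaks was 1144 bp (1090 to 1222), below the 1275 bp (1265 to 1287) of the 8193 lone autosomal peaks. An XY fetus carries 1 copy of the X, and no value of the X given here was adjusted for copy number.

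Peaks over 2000 bp numbered 518, or 4.32% of the whole list. Chromosome 6 had the highest share of them, 8.09% of its 309 peaks (exact interval 5.30 to 11.7%). Chromosomes 28 with 6.53% (3.52 to 10.9%) and 24 with 6.36% (3.52 to 10.4%) came next. The lowest shares were 1.66% on chromosome 12 (0.454 to 4.19%), 2.52% on chromosome 25 (1.26 to 4.46%) and 2.54% on chromosome 1 (1.36 to 4.31%). The intervals of chromosomes 28, 24 and 25 held the 4.32% of the whole list, as did that of the X. Chromosomes 6 and 12 were both among the 3 sparsest autosomes, so a low density went with the highest and with the lowest share of broad peaks. On the X, 3.12% (1.16 to 6.68%) exceeded 2000 bp and its widest peak measured 2189 bp (19419918 to 19422106). Each autosome had at least 1 peak of 2317 bp or more. Smaller autosomes tended to be denser, but not uniformly. Across the 29 autosomes, Spearman's rho between span and density was -0.32 and Pearson's r was -0.39. Without chromosomes 1 and 2, the farthest from the median span, they were -0.24 and -0.35. Chromosome 27, whose span of 45.03 Mb is close to the 42.6 Mb of chromosome 25, carried 3.26 peaks per Mb (2.76 to 3.84) against 10.2 (9.31 to 11.3).

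Most of the unevenness lay within chromosomes. In windows of 1 Mb the number of peaks had a mean of 4.51, a median of 3 and a variance of 28.2, that is, 6.25 times the mean. Differences between the means of chromosomes made up 14.7% of that variance. The ratio of variance to mean within a chromosome ranged from 2.28 on chromosome 9 to 12.8 on chromosome 25 and 10.1 on chromosome 29, and was 1.79 on the X. Adjacent windows resembled each other (Pearson's r 0.44 over 2627 pairs, after each chromosome's mean was taken off, as a description). The 62 windows with more than 20 peaks held 1608 peaks, or 13.4% of the list, and lay on 16 autosomes. Chromosome 19 had 10 of them, chromosome 18 had 9, chromosome 25 had 8 and chromosome 7 had 7.

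Full windows were also found outside chromosomes 19, 25 and 18, the densest ones. Chromosome 14, with 3.87 peaks per Mb, had 33 peaks between 1000001 and 2000000, which equals the fullest window of chromosome 11 (99000001 to 100000000). Chromosome 5 reached 31 peaks (57000001 to 58000000), chromosome 7 reached 30 (45000001 to 46000000) and chromosome 22 reached 29 (51000001 to 52000000). Chromosomes 11, 7 and 22 were themselves denser (5.79, 5.77 and 5.39 per Mb) than all autosomes together (4.75). At the other end, no window of chromosomes 9 and 27 held more than 11 peaks and none of chromosomes 6, 12 and 20 more than 12. On the X the maximum was 6. Windows without a peak were fewest on chromosome 19 (3.33%), followed by chromosomes 23 (9.62%) and 18 (10.8%), and most frequent among autosomes on chromosomes 12 (32.6%), 6 (30.8%) and 20 (29.2%). The X had none in 39.5% of its windows.

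Peaks in full windows were narrower than peaks in sparse ones. The 370 peaks that were alone in their 1 Mb window had a median width of 1338 bp (1282 to 1399). The median was 1251.5 bp (1231 to 1270) in windows of 3 to 5 peaks, 1232 bp (1215 to 1251) in windows of 6 to 10, and 1182 bp (1150 to 1199) in windows of 21 to 44. Lone peaks showed the difference too, with medians of 1302 bp (1275 to 1321) in windows of 3 to 5 and 1214 bp (1190 to 1261) in windows of 21 or more. Within single autosomes, peaks in windows of more than 10 had the lower median than peaks in windows of up to 5 on 24 of 29. The exceptions were chromosomes 1, 7, 15, 18 and 27. Chromosome 18 had the largest opposite difference, 76 bp.

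Gaps between SOX9 peaks ran from single base pairs to several Mb. The median of the 11958 gaps between neighbouring peaks was 65.8 kb (63.7 to 68.4), with quartiles at 19.5 and 192 kb. On a log scale gaps of 56 to 100 kb were the most frequent, and a long, low shoulder reached down to 1 bp. Gaps under 50 bp numbered 239. At the far end 575 gaps exceeded 1 Mb and 15 exceeded 5 Mb. The median gap was shortest on chromosome 25, at 24.9 kb (21.02 to 31.3), followed by 28.1 kb (24.2 to 32.6) on chromosome 19 and 36.6 kb (31.5 to 42.1) on chromosome 18. It was longest among autosomes on chromosome 6 at 132 kb (106 to 168), chromosome 9 at 132 kb (105 to 159) and chromosome 20 at 123 kb (100 to 188). The X had a median gap of 313 kb (263 to 431). Chromosome 29 combined a short median gap, 40.2 kb (33.1 to 54.2), with a density of 5.62 per Mb (4.99 to 6.31), and 26.9% of its windows were empty.

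Medians of width were higher the farther away the nearest peak lay. Peaks less than 50 bp from their nearest neighbour had a median of 973 bp (952 to 1002, 474 peaks), and those 500 bp to 1 kb away 1032 bp (997 to 1103, 297 peaks). At 1 to 2 kb the median was 1151 bp (1085 to 1191), at 10 to 20 kb 1218.5 bp (1201 to 1251), at 100 to 200 kb 1305 bp (1273 to 1330) and over 1 Mb 1390 bp (1229 to 1429, 90 peaks). On 29 of 29 autosomes peaks with a neighbour within 10 kb had a lower median width than lone peaks, with differences from -339 to -38 bp.

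**Figure D2:**
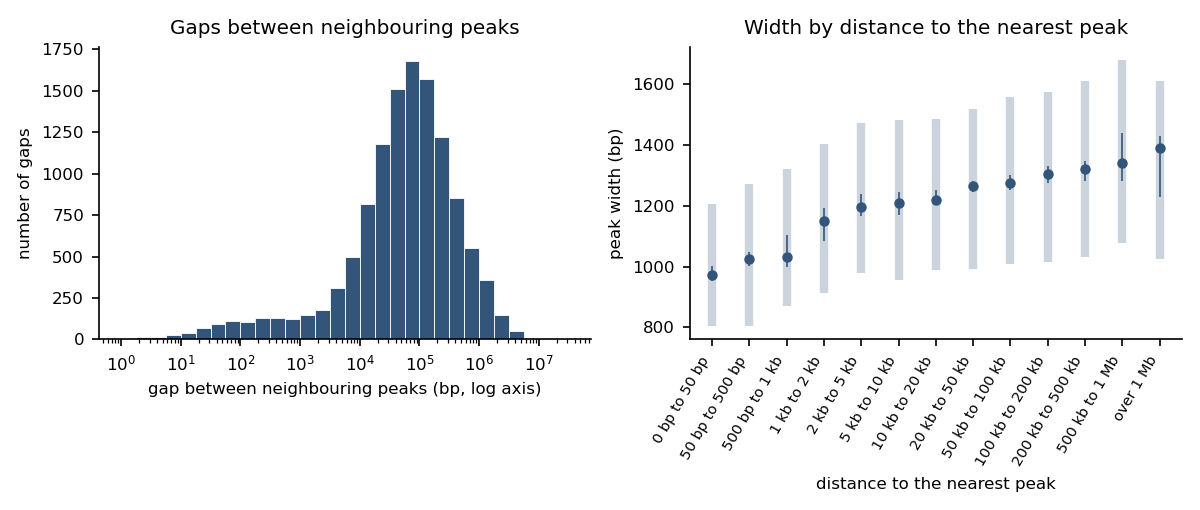
Left, number of gaps between neighbouring bovine SOX9 peaks by gap length (bp, log axis, steps of 0.25 on the log10 scale), highest between 56 and 100 kb, and with a low shoulder below 3 kb. Right, peak width (bp; the axis does not start at 0) by distance to the nearest peak, with medians (points), their 95% intervals (thin lines) and quartiles (grey bars), with medians from 973 bp under 50 bp to 1390 bp over 1 Mb.

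In the 707 pairs less than 500 bp apart, the narrower member had a median of 837 bp and the wider 1180 bp. Joined, such pairs formed 641 regions of 2 peaks with a median of 2172 bp (2101 to 2244) and 32 regions of 3 or more with a median of 3785.5 bp (3481 to 4221), against 1254 bp (1244 to 1263) for the 10608 peaks left single. A joined region spans its peaks and the gaps between them, so it is wider than its members by construction. The median of the joined pairs lay between 1962 bp, the 95th percentile of the deposited widths, and 2381 bp, the 99th. How the peak caller split or joined neighbouring signal is not given in the sources used here, and its part in the widths of close peaks was not tested.

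When peaks within 10 kb were chained, 8361 stood alone, 1348 chains held 2 peaks, 227 held 3, 39 held 4, 14 held 5 and 4 held 6. Chains of at least 3 were most frequent on chromosome 19 with 39, chromosome 25 with 25 and chromosome 18 with 21, and there was none on chromosome 20 or the X. The number of chains depended on the rule: the list held 284 chains of at least 3 as deposited, 178 once peaks less than 500 bp apart were merged, 139 with neighbours within 5 kb and 574 within 20 kb. In settings added after the data were seen, chromosome 19 had the most chains under all 3 alternatives (28, 18 and 78). After merging, chromosome 18 had fewer than chromosome 7 (10 against 14), while chromosome 25 shared the next place with chromosome 7 at 5 kb (10 each) and came after chromosome 18 at 20 kb (42 against 46). Chromosome 20 had 1 chain at 20 kb and the X had none in any of these settings. Over the whole list, 3627 of 11988 peaks had a neighbour within 10 kb and 69.7% stood alone. Chromosomes 25 and 19 also led in the share of peaks with a neighbour within 10 kb, at 47.8% (43.1 to 52.6%) and 43.5% (39.9 to 47.2%), followed by chromosome 23 with 38.0% (33.0 to 43.2%). Chromosomes 19, 25 and 18 were also the densest autosomes. Across the 29 autosomes this share was higher at higher density (Spearman's rho 0.63, Pearson's r 0.82). Without chromosomes 19 and 25 the values were 0.55 and 0.64. Both this share and the number of chains rise with density even for peaks placed at random. Whether they exceeded that was not tested. The lowest shares were 12.5% (8.18 to 18.0%) on the X, 20.9% (15.2 to 27.5%) on chromosome 20 and 21.1% (15.7 to 27.4%) on chromosome 28. Chromosome 28 nevertheless held 1 of the 4 largest chains.

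These 4 chains of 6 peaks differed in build. The chain on chromosome 7 (4668273 to 4693274) had wide peaks, 1330 to 2431 bp with a median of 1748 bp, and its last 3 peaks lay 126 and 32 bp apart. The chain on chromosome 28 (31313459 to 31328964) had a single wide peak of 2762 bp among peaks of 865 to 1433 bp, and peaks covered 52.2% of its 15.5 kb. The most compact chain lay on chromosome 25 (39422495 to 39433165), where 6 peaks of 714 to 1588 bp covered 64.8% of 10.7 kb. The other chain on chromosome 25 (36469280 to 36508504) was the loosest, with 16.2% of 39.2 kb covered.

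The loosest chain was evenly stepped. The starts of its first 5 peaks followed each other at 9083, 9618, 9397 and 9323 bp, a mean step of 9355 bp (SD 221, 4 steps). Their widths were 1274, 1311, 1147, 1007 and 884 bp, and the sixth peak of 722 bp followed the fifth after 198 bp. A search of all chromosomes for runs of at least 4 peaks, with steps under 30 kb whose longest was at most 15% longer than the shortest, returned 5 runs. This was the only run of 5 peaks. The others had 4 peaks each, 1 on chromosome 2 (20810004 to 20833178, mean step 7289 bp, widths 1308 to 2282 bp) and 3 on chromosome 19 (34960800 to 35042110, 44755879 to 44809676 and 56922542 to 56973476, mean steps 26795, 17646 and 16603 bp). The search was added after the values were seen, and how many such runs an uneven list of this length would hold was not tested. Whether the steps correspond to repeated sequence was not analysed here.

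**Figure D3:**
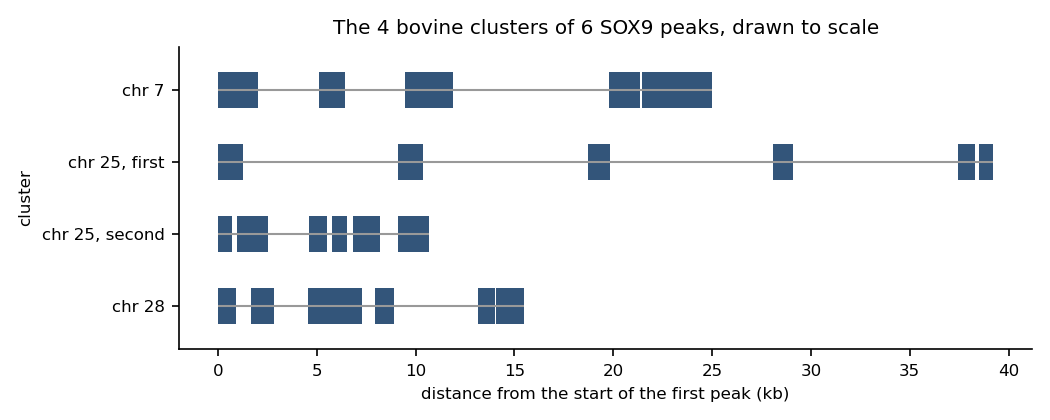
The 4 chains of 6 bovine SOX9 peaks drawn to scale, with peaks as blocks and the distance from the start of the first peak in kb on the horizontal axis. Peaks 32 to 126 bp apart on chromosome 7, and 42 bp apart on chromosome 28, merge at this scale, and the first chain on chromosome 25 shows 5 peaks at a mean step of 9355 bp.

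The longest stretches without a peak fell on sparse chromosomes. They were 13.6 Mb on chromosome 20, 10.8 Mb on chromosome 6 (74188929 to 84998117), 8.33 Mb on chromosome 9 (623111 to 8952864), 7.99 Mb on chromosome 1 (10241505 to 18231867) and 7.90 Mb on chromosome 12 (36923289 to 44823042). The stretch on chromosome 12 began inside that chromosome's fullest window (36000001 to 37000000, 12 peaks). The peaks that bounded the stretch on chromosome 20 measured 1721 and 1713 bp, both in the wider part of the list, while those at the stretch on chromosome 9 measured 622 and 1710 bp. On chromosome 19 no internal stretch exceeded 2.32 Mb.

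Cattle autosomes are acrocentric, with the centromere near the end from which positions are counted. SOX9 peaks were more frequent toward the opposite end. When each span was cut into 10 equal parts (deciles), the last decile held 13.6% of autosomal peaks (13.03 to 14.3%) and decile 9 held 12.9% (12.3 to 13.6%), while each of the first 8 deciles held 8.22% to 9.99%. The last decile held more than 10% of the peaks on 22 of 29 autosomes, with a range from 2.74% on chromosome 19, where it held 20 of 731 peaks, to 25.6% on chromosome 2. The last 10 Mb carried 6.99 peaks per Mb (6.69 to 7.30) against 4.45 in the rest, and were denser than the rest on 19 of 29 autosomes. Each autosome gives 10 Mb to the first density, while long autosomes weigh more in the second. The densities therefore also differ in their mix of chromosomes. Single chromosomes had their own profiles. Chromosome 29 had 42.8% of its peaks in decile 9, chromosome 7 had 28.5% in decile 2, chromosome 26 had 27.0% in decile 5 and chromosome 25 had 25.4% in decile 1. Decile 7 of chromosome 20, inside its longest empty stretch, had none.

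**Figure D4:**
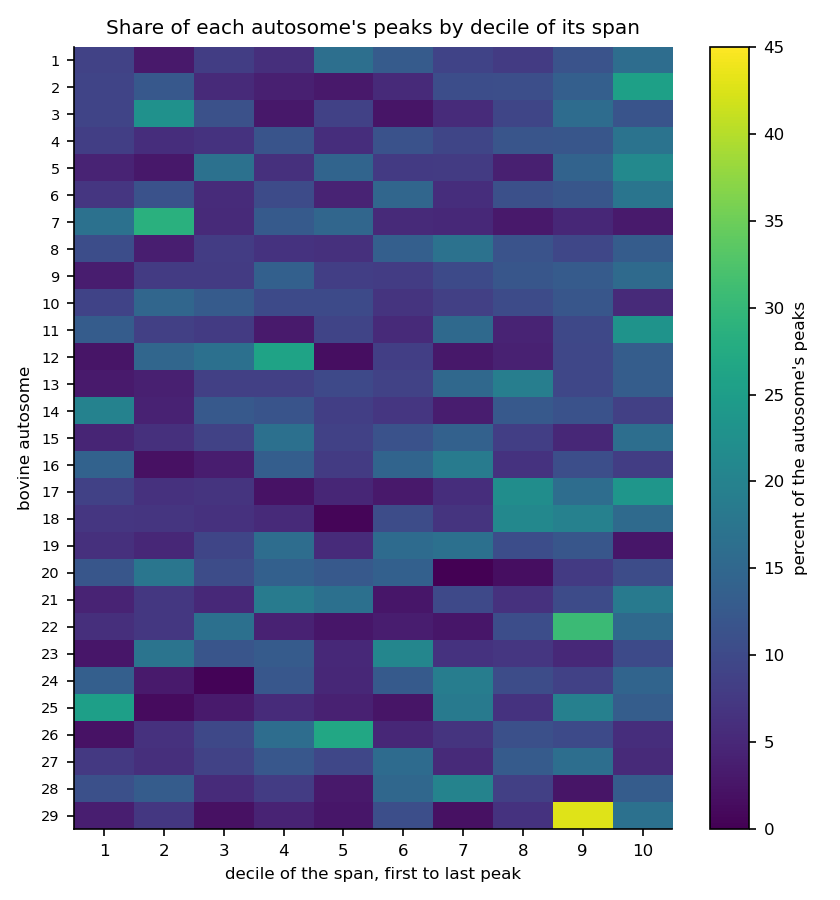
Share of each bovine autosome's SOX9 peaks (colour, percent) in each of 10 equal parts (deciles) of its span from first peak (1) to last peak (10). The brightest cell is decile 9 of chromosome 29 with 42.8%, and the last decile exceeds 10% on 22 of 29 autosomes.

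Peaks of the last decile were also the narrowest. Their median width was 1132 bp (1102 to 1153), against 1289 bp (1257 to 1317) in the fifth decile, and medians fell from the middle toward both ends, to 1198 bp (1170 to 1225) in the first decile. Lone peaks showed the same profile, with 1174 bp (1136 to 1206) in the last decile and 1332.5 bp (1301 to 1373) in the fifth. The share of peaks with a neighbour within 10 kb was 31.3% (29.04 to 33.6%) in the last decile and 28.2% (25.4 to 31.2%) in the fifth, intervals that overlap. Taken chromosome by chromosome, lone peaks of the last decile had a lower median than lone peaks of the rest on 29 of 29 autosomes, with differences from -271 to -15 bp and a median of -113 bp. Over all peaks this held on 27 of 29, and the exceptions were chromosomes 19 and 25. For the first decile it held on 17 of 29. Base composition and mappability, which could vary along chromosomes, were not analysed here.

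Along the X, SOX9 peaks were patchy. The first 20 Mb held 40 of the 192 peaks, or 2.00 per Mb (1.43 to 2.72). From 20 to 80 Mb there were 45 peaks, or 0.750 per Mb (0.547 to 1.00), and the poorest bin of 10 Mb, from 40000001 to 50000000, held 4. The stretch from 80 to 110 Mb held 64 peaks, 33.3% of the X total, at 2.13 per Mb (1.64 to 2.72). From 110 to 130 Mb the density was 0.650 (0.346 to 1.11) and the remainder, from 130 Mb on, held 30 peaks (1.01 to 2.14 per Mb). The intervals of the 2 richest stretches did not overlap those of the 2 poorest, and these stretches were drawn after the values were seen. The bin of 10 Mb with the most peaks, from 90000001 to 100000000, held 22, or 2.20 per Mb (1.38 to 3.33), an interval that holds the 2.54 per Mb of chromosome 20, the sparsest autosome. Median widths of the bins ranged from 890 bp (6 peaks, 20000001 to 30000000) to 1331.5 bp (6 peaks, 110000001 to 120000000), with few peaks behind each. The longest stretch of the X without a peak between 2 peaks was 7.65 Mb (118535858 to 126183358).

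**Figure D5:**
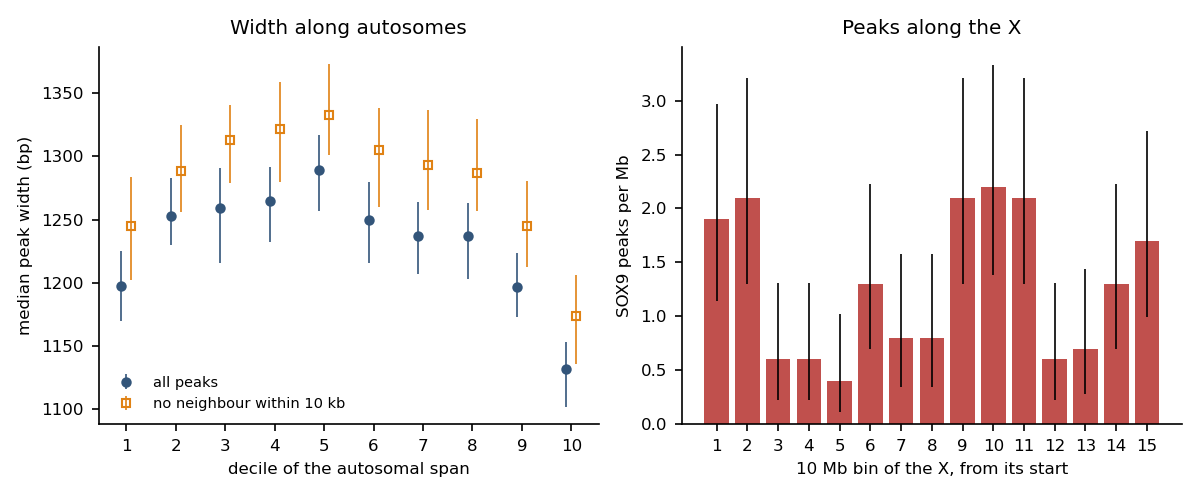
Left, median width (bp; the axis does not start at 0) of bovine autosomal SOX9 peaks by decile of the span, for all peaks (circles) and lone peaks (squares) with 95% intervals, lowest in the last decile at 1132 and 1174 bp. Right, SOX9 peaks per Mb in 15 bins of 10 Mb along the X with exact 95% Poisson intervals, with bins of about 2 per Mb at the start and in bins 9 to 11 and 0.400 per Mb in bin 5.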

How the data were processed

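The authors deposited 1 bovine peak list for 2 SOX9 libraries and 1 input library. Each line holds chromosome, start, end and 1 more value, the peak width, which matched end minus start in all 11988 lines. Per the submitters' processing notes, UMD 3.1 is among the builds used, and it was taken as the bovine build. The sources used here give no aligner, peak caller, threshold, depth or handling of replicates and input. The mouse list was only counted.

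Densities used the span from first to last peak of a chromosome, windows of 1 Mb took peaks by midpoint, and gaps were measured edge to edge (Python 3.11.15, pandas 2.3.3, scipy 1.17.1). Functions were tested on simulated data. No test was run, since 1 list has no replicates. Alternatives were merging below 500 bp, the widest 50% of peaks, other windows, neighbour distances and denominators. Regions were named by rule: the 3 highest and 3 lowest chromosomes of a measure with the X, the largest chains, the 5 narrowest peaks, the 5 longest empty stretches and X bins. Others were picked once their values were known. The members and rules were chosen with earlier results of these data known. The gene list planned for a UMD 3.1 annotation was not used.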

Additional observations from a re-analysis of the deposited data

How the results depend on the processing

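Of 30 alternative values, 10 stayed close to the reported value and 20 moved. Close meant within 1.5 times for counts, within 0.1 for correlations and otherwise within the counting interval, which for the fold between autosomes was 4.14 to 5.73. Only 7 of the values could change sign, and 0 of these did. Keeping the widest 50% of peaks left 6002 peaks, with a median width of 1504 bp, a median gap of 157 kb and 11.5% of autosomal peaks in the last decile. That count and that median width are set by the filter, since 1504 bp is also the 75th percentile of all widths. The share of empty windows likewise rises with smaller windows by construction, so such moves say little about the peaks. Merging peaks less than 500 bp apart gave a median width of 1284 bp, a median gap of 74.2 kb, 178 chains of at least 3 (against 284), a width difference of -112 bp between chained and lone peaks (against -174 bp) and a rho of -0.59 between density and width. That rho was -0.59 for lone peaks too. This setting, the merged rho, the rho without chromosomes 19 and 25 (-0.42), the fold without chromosome 19 and the mean of the autosomes' own shares in the last decile (13.6%) were chosen after seeing the data. The fold between the densest and the sparsest autosome was 3.53 per window that holds a peak and 4.04 without chromosome 19. The fullest 10% of windows held 42.1% of peaks at 0.5 Mb and 34.5% at 2 Mb (37.8% at 1 Mb), and 36.1% and 9.36% of windows were empty (20.1%). Neighbours within 5 kb gave 139 chains and a width difference of -200.5 bp, and within 20 kb 574 chains. The density ratio of the last decile to the rest was 1.42, and 1.57 for the last 10 Mb, where small autosomes weigh more. No paired analysis was possible because 1 list stands for all bovine libraries, and leaving out a library was not possible for the same reason. Depth is unknown, so regions too shallow to be called cannot be listed.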
